A study of Mus musculus with 6 samples.

Results

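The CC chemokine genes of mouse chromosome 11 were compared in the visceral fat of patDp/+ and wild type mice, gene by gene and array by array. The 10 genes are Ccl2, Ccl7, Ccl11, Ccl12 and Ccl8, whose probes lie together and are called the Ccl2 subcluster here, and Ccl5, Ccl9, Ccl6, Ccl3 and Ccl4, called the Ccl5 subcluster. They are the cluster genes whose array name is one of these symbols and whose probe was well above background, 10 of 19194 genes tested. They were selected on measured values, since the higher levels of several of them in patDp/+ fat on these same 6 arrays were known when they were picked. Their differences between genotypes are therefore given as a description, with no test.

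The tissue was epididymal white adipose tissue, a fat depot beside the testis, from male mice aged 9 to 10 weeks on a C57BL/6 background. One group was 3 mice of wild type genotype. The other was 3 patDp/+ mice, which inherited from the father an extra copy of a stretch of chromosome 7 that models the human 15q11-13 duplication. Each mouse gave 1 one-colour array from 200 ng of total RNA. The duplication is present in all tissues of these mice and whole fat was measured, so a change in the number of cells of a type cannot be told apart from a change of RNA per cell. None of the 10 genes lies on the duplicated chromosome.

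Chemokines are small secreted proteins that guide leukocytes along a gradient, bind receptors of the G protein-coupled class and are held on cell surfaces by glycosaminoglycans. The CC family takes its name from a pair of adjacent cysteines, and in the mouse many of its inflammatory members sit side by side on chromosome 11, where they arose by gene duplication. In adipose tissue they are known for recruiting monocytes, eosinophils and T cells, and are made by macrophages, stromal cells and adipocytes.

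The arrays matched their labels. Snrpn, Ndn and Ube3a, genes of the duplicated stretch, were higher by 1.18, 1.07 and 0.49 on the log2 scale, and the groups did not overlap in any of the 3. All 10 listed adipocyte markers were measured, and Adipoq and Plin1 had mean log2 values of 8.46 ± 0.08 and 6.48 ± 0.11 (SD, n = 3) in wild type fat. Crisp1, Lcn5, Lcn8 and Defb42, markers of the neighbouring epididymis, exceeded background on too few arrays to count as measured. The other 5 of 9 listed epididymis and testis markers, Lcn9, Adam28, Prm1, Prm2 and Tnp1, were measured, and the summed signal of the 5 was 0.27 to 0.35 in wild type and 0.23 to 0.29 in patDp/+ fat, in multiples of the array's 75th percentile. Arrays correlated at 0.988 to 0.994 across genes, which are not independent replicates. Between 26086 and 29509 probes per array were well above background, and negative control spots had their highest mean net signal, 36.7, on the array of patDp/+ replicate 1, against 29.0 to 31.6 on the others. Each slide held 1 wild type and 1 patDp/+ array with the same replicate number.

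Sequences upstream of the start site were at hand for 5 of the 10 genes, from RefSeq on GRCm38.p6. Those of Ccl12 and Ccl8, the last pair of the Ccl2 subcluster, are shown because these genes had the smallest differences between the genotypes. Capitals mark a TATA box (letters TATAAA), the element that positions the start of transcription at many inducible genes. Each line holds the 250 bases before the start site on the gene's own strand, chr11:82101595-82101844 (plus) for Ccl12 and chr11:82114935-82115184 (plus) for Ccl8.
Ccl12: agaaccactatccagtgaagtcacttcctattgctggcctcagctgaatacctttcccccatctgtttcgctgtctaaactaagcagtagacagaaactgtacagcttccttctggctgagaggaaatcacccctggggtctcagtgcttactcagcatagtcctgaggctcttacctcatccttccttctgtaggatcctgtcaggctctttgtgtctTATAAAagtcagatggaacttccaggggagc
Ccl8: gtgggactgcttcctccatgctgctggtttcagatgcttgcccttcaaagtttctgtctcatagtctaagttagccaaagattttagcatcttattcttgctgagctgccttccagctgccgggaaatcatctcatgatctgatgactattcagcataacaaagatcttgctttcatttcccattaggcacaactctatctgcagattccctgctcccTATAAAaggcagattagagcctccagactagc

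The next windows are those of Ccl9, chr11:83578637-83578886 (minus), and Ccl6, chr11:83593088-83593337 (minus). These neighbours are shown because they had almost the same pattern over the arrays, with each gene centred on its own mean. Capitals mark the longest run of bases that they share, 13 bases, which begins at base -14 of Ccl9 and base -55 of Ccl6, counted back from the start site.
Ccl9: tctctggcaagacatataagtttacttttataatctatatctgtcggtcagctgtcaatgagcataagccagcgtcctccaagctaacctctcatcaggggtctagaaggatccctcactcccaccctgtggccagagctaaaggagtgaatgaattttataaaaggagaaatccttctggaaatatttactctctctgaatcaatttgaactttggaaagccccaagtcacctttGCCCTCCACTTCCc
Ccl6: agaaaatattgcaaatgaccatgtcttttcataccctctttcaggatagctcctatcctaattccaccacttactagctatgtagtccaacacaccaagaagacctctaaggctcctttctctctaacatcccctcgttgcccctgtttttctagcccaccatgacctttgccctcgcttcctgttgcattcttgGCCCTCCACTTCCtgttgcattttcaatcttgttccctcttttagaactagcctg

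The run was present in 3 of 32536 upstream windows of the same length. Motifs were searched on both strands over the wider window of 250 bases before and 50 after the start site. The TATA box began at base -31 in Ccl12 and base -32 in Ccl8. Ccl9 held TATAAA at -92 on the plus strand, overlapping a match at -94 on the minus strand, and once more at -224 on the minus strand. Ccl9 alone of the 5 also matched AP-1 (TGANTCA) at -53 and the NF-kB consensus at -35 on the minus strand, and these did not overlap another motif. The interferon-stimulated response element (TTTC, 2 free bases, TTTC) matched in none of the 5, and Ccl6 and Ccl3 matched no motif searched. Over 32544 promoters of that window length, 13.6% held TATAAA, 7.79% the AP-1 letters, 4.53% the NF-kB consensus and 3.45% the interferon element. A match is a string of letters and was not tied to binding.

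All 10 genes had a higher mean in patDp/+ fat. Log2 differences ran from 0.06 for Ccl8 to 1.07 for Ccl7, with a median of 0.48. Over all 19194 genes 43.5% were higher and the median was -0.02. For 4 of the 10, Ccl7, Ccl11, Ccl5 and Ccl4, the lowest patDp/+ array exceeded the highest wild type array, against 4.39% of all genes tested. No gene of the array passed an adjusted p of 0.05 in limma (0% of 19194), while 1107 had an unadjusted p under 0.05. The count of 4 was 1 with normexp background correction, which left only Ccl4 (6.67% of all genes), and 7 without patDp/+ replicate 3 (12.6%), which added Ccl2, Ccl9 and Ccl6. Since the genes were chosen on this contrast, nothing is read from these counts.

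**Figure D1:**
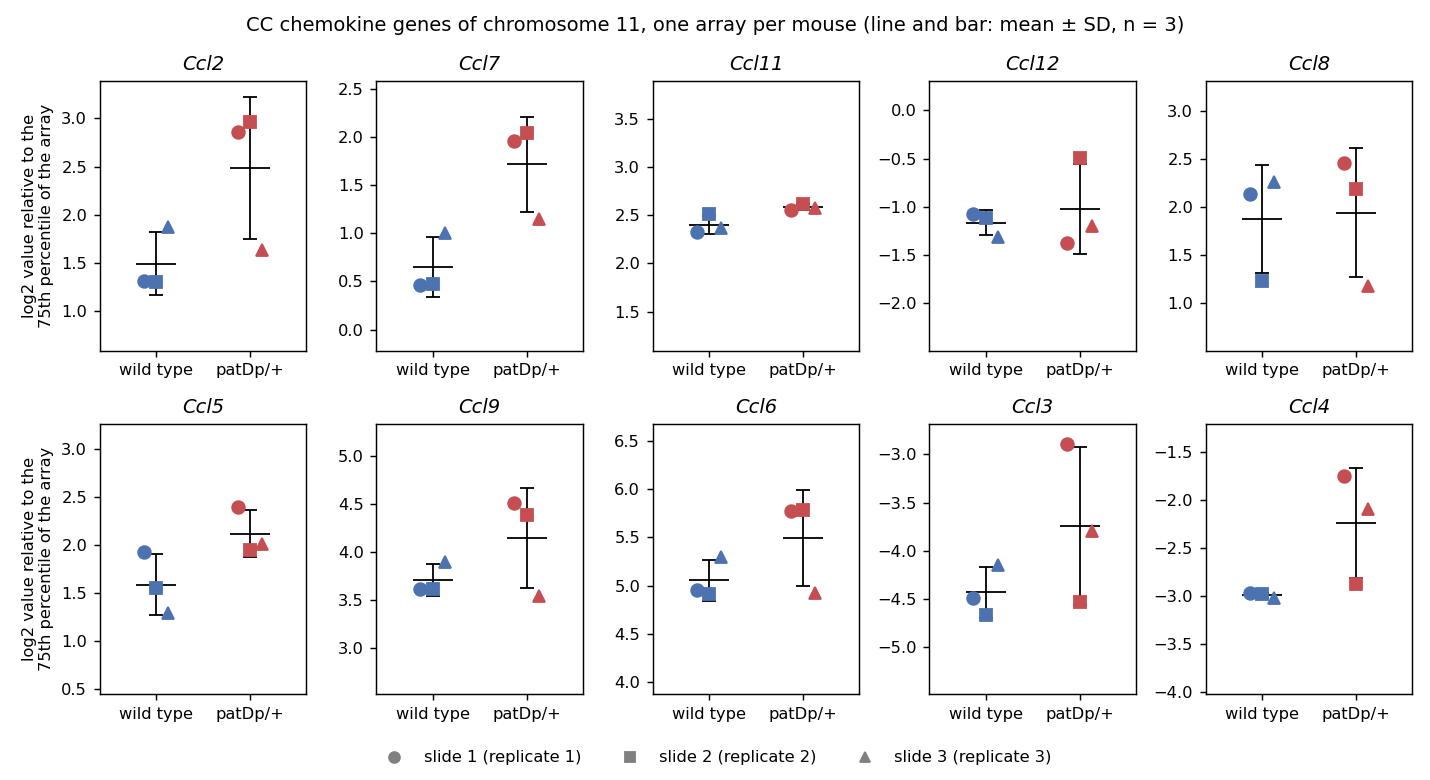
Log2 value relative to the array's 75th percentile (vertical axis) of the 10 genes in wild type and patDp/+ fat, 1 point per array, with line and bar for mean ± SD (n = 3) and point shape for the slide. The groups separate for Ccl7, Ccl11, Ccl5 and Ccl4. The point of patDp/+ replicate 3 (triangle) lies within the wild type range for Ccl2, Ccl12 and Ccl6 and below it for Ccl8 and Ccl9.

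Values below are log2 intensities relative to the array's 75th percentile, so 0 marks a signal equal to that percentile. Probes bind with different strength, so the level of one gene is not set against that of another.

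Ccl2 encodes monocyte chemoattractant protein 1, the main ligand of Ccr2 and the signal that brings inflammatory monocytes out of the blood. Its probe (chromosome 11, 81850650 to 81850709, mm9) read 1.31, 1.30 and 1.87 in wild type replicates 1, 2 and 3, and 2.85, 2.96 and 1.63 in patDp/+ replicates 1, 2 and 3. In patDp/+ fat, replicates 1 and 2 stood above every other array, while replicate 3 lay below wild type replicate 3, so the groups overlapped. The mean was 1.99-fold higher, a log2 difference of 0.99 ± 0.38 (SE), with 1.49 ± 0.33 in wild type and 2.48 ± 0.74 in patDp/+ fat (SD, n = 3). This probe was printed 10 times on each array. The spots of an array had an SD of 0.0249 to 0.0509, and those of patDp/+ replicate 3 ran from 1.56 to 1.71, below the 1.83 to 1.91 of wild type replicate 3. The spots share 1 RNA sample per array, so their spread covers printing and scanning only, not the spread between mice.

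Ccl7, monocyte chemoattractant protein 3, also acts on Ccr2 and is needed with Ccl2 for monocytes to leave the bone marrow. Wild type values were 0.46, 0.47 and 1.01 and patDp/+ values 1.96, 2.04 and 1.15 (81860656 to 81860715). The array pattern followed that of Ccl2, with patDp/+ replicate 3 the lowest of its group, but here it stayed above wild type replicate 3 by 0.14 and the groups did not overlap. The difference was 1.07 ± 0.28 (SE), or 2.10-fold. Another probe in the same gene (81860504 to 81860563) gave -0.04, -0.14 and 0.39 in wild type and 1.39, 1.46 and 0.55 in patDp/+ fat. It had the same order of arrays apart from the lowest pair, no overlap and a difference of 1.06.

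Ccl11, eotaxin, attracts eosinophils through Ccr3. It read 2.33, 2.51 and 2.37 in wild type and 2.56, 2.62 and 2.57 in patDp/+ fat (81876072 to 81876131). Arrays of patDp/+ fat were all above those of wild type fat, in a narrow band. The log2 difference was 0.18 ± 0.08 (SE), or 1.14-fold, and it was 0.06 with normexp background correction, where the groups overlapped. Its range over the 6 arrays was 0.30, against 1.66 for Ccl2.

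Ccl12, monocyte chemoattractant protein 5, is a rodent gene that shares Ccr2 as its receptor. Values were -1.07, -1.11 and -1.32 in wild type and -1.37, -0.49 and -1.20 in patDp/+ fat (81916710 to 81916769). Only patDp/+ replicate 2 stood high, and patDp/+ replicate 1 was the lowest of the 6 arrays. The difference of 0.14 ± 0.23 (SE) was smaller than its error, and it ran from -0.12 without patDp/+ replicate 2 to 0.32 without patDp/+ replicate 1.

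Ccl8, monocyte chemoattractant protein 2, is in the mouse a ligand of Ccr8. It gave 2.14, 1.23 and 2.26 in wild type and 2.46, 2.18 and 1.18 in patDp/+ fat (81930108 to 81930167). Each group held 1 low array, replicate 2 of wild type and replicate 3 of patDp/+, and the groups overlapped. The difference was 0.06 ± 0.41 (SE). It was -0.26 without wild type replicate 2, -0.19 without patDp/+ replicate 1, -0.06 without patDp/+ replicate 2 and 0.44 without patDp/+ replicate 3.

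Within the Ccl2 subcluster, which spans 79.5 kb from the Ccl2 probe to the Ccl8 probe, the difference was thus near 1 at Ccl2 and Ccl7 and under 0.2 at the other 3 genes. The median of the 5 was 0.18. Ccl1, a T cell-derived ligand of Ccr8 whose probe lies beyond Ccl8 (81990336 to 81990395), was well above background on 1 of 6 arrays and was not measured.

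Ccl5, also called RANTES, is made by T cells, natural killer cells, platelets and macrophages and acts on Ccr1 and Ccr3, among others. Wild type arrays read 1.93, 1.55 and 1.29 and patDp/+ arrays 2.39, 1.95 and 2.01 (83339296 to 83339355). Every patDp/+ array was above every wild type array, but patDp/+ replicate 2 cleared wild type replicate 1 by only 0.02. The difference was 0.53 ± 0.20 (SE), or 1.44-fold. On its other probe, for which no position is given, the values were 0.24, 0.03 and -0.27 in wild type and 0.84, 0.43 and 0.47 in patDp/+ fat, again without overlap and with a difference of 0.58.

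Ccl9 and Ccl6 are rodent chemokines of macrophages and other myeloid cells that signal through Ccr1. For Ccl9 the wild type values were 3.61, 3.61 and 3.90 and the patDp/+ values 4.51, 4.38 and 3.54 (83388223 to 83388282). For Ccl6 they were 4.95, 4.91 and 5.30 in wild type and 5.78, 5.79 and 4.92 in patDp/+ fat (83401997 to 83402056). In both genes patDp/+ replicates 1 and 2 were the highest arrays, and wild type replicate 3 came next. The array of patDp/+ replicate 3 was the lowest of all 6 for Ccl9 and lay between wild type replicates 2 and 1 for Ccl6. The differences were 0.44 ± 0.26 (SE) for each gene, 1.35-fold for Ccl9 and 1.36-fold for Ccl6, with overlapping groups. Without patDp/+ replicate 3 they were 0.74 and 0.73, and without patDp/+ replicate 1 they were 0.26 and 0.29. The longest run of bases shared by the 60-base probes of Ccl9 and Ccl6 was 8, and the longest among all members was 13, between Ccl12 and Ccl8.

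Ccl3, macrophage inflammatory protein 1 alpha, is a ligand of Ccr1 that activated macrophages and lymphocytes release. It read -4.49, -4.66 and -4.14 in wild type and -2.89, -4.53 and -3.80 in patDp/+ fat (83461358 to 83461417). Replicates 1 and 3 of patDp/+ were the highest arrays, and patDp/+ replicate 2 lay among the wild type values. The difference was 0.69 ± 0.41 (SE), or 1.62-fold. It was 0.25 with the authors' deposited table, 0.27 without patDp/+ replicate 1 and 1.09 without patDp/+ replicate 2. Its processed intensity, which is background-subtracted, was 39.7 to 143. The negative controls had a mean net signal of 29.0 to 36.7, a different measure that sets no floor for the processed intensity. The highest Ccl3 reading came from the array whose negative controls were brightest, and the part of this in the result was not tested.

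Ccl4, macrophage inflammatory protein 1 beta, attracts T cells and other leukocytes. Wild type values were -2.97, -2.98 and -3.02 and patDp/+ values -1.75, -2.87 and -2.10 (83478052 to 83478111). The wild type arrays lay within 0.05 of each other and all 3 patDp/+ arrays were above them, patDp/+ replicate 2 by the least. The difference was 0.75 ± 0.28 (SE), or 1.68-fold. It was 0.51 with the authors' deposited table, 0.50 without patDp/+ replicate 1 and 1.07 without patDp/+ replicate 2. The processed intensity of Ccl4 was 118 to 317. Its highest reading, on patDp/+ replicate 1, was also on the array with the brightest negative controls. The part of this in the result was not tested. Over the 139 kb of the Ccl5 subcluster the differences ran from 0.44 to 0.75 with a median of 0.53, a narrower span than in the Ccl2 subcluster. All 10 genes were well above background on 6 of 6 arrays, with 0 saturated spots.

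**Figure D2:**
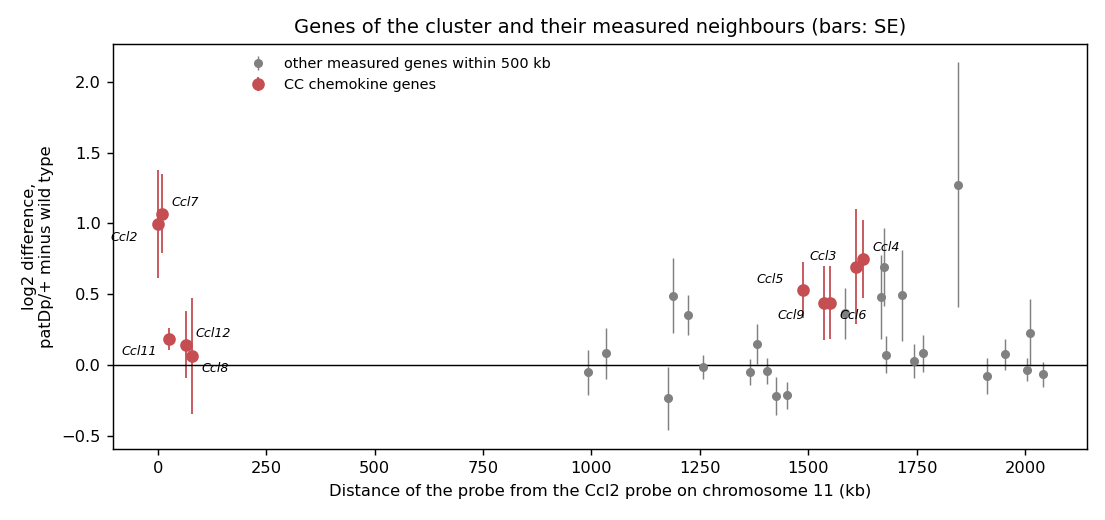
Log2 difference (patDp/+ minus wild type, bars SE) against the distance in kb from the Ccl2 probe on chromosome 11, for the 10 chemokine genes (red) and the other genes measured within 500 kb of them (grey). Ccl2 and Ccl7 lie near 1, the rest of their subcluster under 0.2, and the 5 genes of the Ccl5 subcluster between 0.44 and 0.75.

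The subclusters are 1.41 Mb apart. No other gene was measured within 500 kb of the Ccl2 subcluster. Around and inside the Ccl5 subcluster 24 other genes were measured, of which 14 were higher, with a median difference of 0.07 and a range from -0.24 to 1.27. In 1 of the 24, the feature NAP002592-003, the groups separated upward (4.39% of all genes did). The measured gene nearest to a member was E230016K23Rik, between Ccl6 and Ccl3, with a difference of 0.36 ± 0.18 (SE). The WAP-domain genes Wfdc17, Wfdc18 and Wfdc21, beyond Ccl4, had 0.48 ± 0.30, 0.69 ± 0.28 and 0.49 ± 0.32, with overlapping groups. These were below the 0.75 of Ccl4 beside them and within the 0.44 to 0.75 of the Ccl5 subcluster. On the other side, Taf15 and Mmp28, the measured genes next to Ccl5, had -0.21 ± 0.09 and -0.22 ± 0.13 (SE).

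Each slide may be a technical batch, so the patDp/+ array was also set against the wild type array of its slide. The mice of a slide are not known to be related, and such a difference rests on 1 mouse of each genotype. On slide 1, 9 of the 10 genes were higher in the patDp/+ array, with a median of 0.86, on slide 2 all 10 with a median of 0.69, and on slide 3 6 of 10 with a median of 0.13. The share of all genes that were higher was 51.1%, 43.7% and 43.8% on these slides. The highest of the 6 arrays was patDp/+ replicate 1 for 5 genes and patDp/+ replicate 2 for the other 5.

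The way the genes divided over the slides crossed the subclusters. Ccl2 had differences of 1.55, 1.66 and -0.23 on slides 1, 2 and 3, and Ccl7 had 1.50, 1.57 and 0.14. Ccl9 and Ccl6 showed the same form at a smaller size, with 0.90, 0.77 and -0.35 and with 0.83, 0.87 and -0.38. These 4 genes had a clear difference on slides 1 and 2 and little or a negative one on slide 3. Ccl3 had 1.60, 0.13 and 0.35 and Ccl4 1.22, 0.11 and 0.92, so that their least difference was on slide 2. Ccl5 (0.47, 0.40 and 0.72) and Ccl11 (0.23, 0.11 and 0.20) were higher on all 3 slides. Ccl12 (-0.31, 0.62 and 0.12) and Ccl8 (0.32, 0.95 and -1.08) changed sign between slides.

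**Figure D3:**
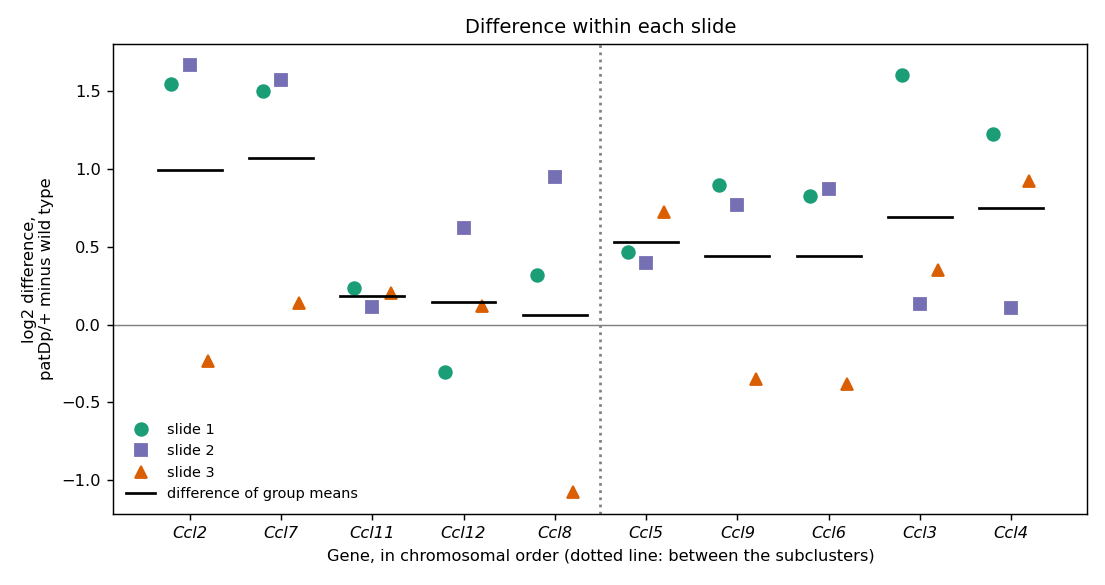
Log2 difference between the patDp/+ and the wild type array of the same slide for each gene in chromosomal order (points, 1 per slide), with the difference of group means (black line). Slide 3 lies below 0 for Ccl2, Ccl8, Ccl9 and Ccl6, and all 3 slides lie above 0 for Ccl7, Ccl11, Ccl5, Ccl3 and Ccl4.

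Averaged over the 5 genes, each gene centred on its own mean, the Ccl2 subcluster differed by 0.66, 0.98 and -0.17 on slides 1, 2 and 3 and the Ccl5 subcluster by 1.00, 0.46 and 0.25. The macrophage and monocyte markers had means of 0.35, 0.30 and -0.04 on the same slides. Of the 16 macrophage and monocyte markers all were measured and 14 were higher, with a median of 0.21. The groups separated upward in 2, Adgre1 and Timd4 (4.39% of all genes did). Of the 16, 0 passed the adjusted threshold in limma and 1 had an unadjusted p under 0.05. Their summed signal, in multiples of the array's 75th percentile, was 309 to 343 in wild type and 321 to 399 in patDp/+ fat. Adgre1, which encodes the macrophage antigen F4/80, differed by 0.16 ± 0.10, and Cd68, a lysosomal glycoprotein gene, by 0.36 ± 0.24 (SE). The sum, which strong signals such as that of Lyz2 dominate, was highest on patDp/+ replicates 1 and 2, but single markers did not all follow it. Adgre1 read 2.66 on patDp/+ replicate 3 and 2.64 on replicate 2. Timd4 was highest on replicate 3, at -1.04, beside -1.05 on replicate 1. These margins are small, and in most of the 16 markers replicate 3 was the lowest patDp/+ array. The part of these cells in the chemokine values was not tested.

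Other leukocyte markers divided differently. The T and NK cell markers, 12 of 14 measured, were higher in 10 with a median of 0.31, and their means on slides 1, 2 and 3 were 0.38, 0.31 and 0.41. Their summed signal was 1.81 to 2.40 in wild type and 2.52 to 2.95 in patDp/+ fat, without overlap. T and NK cells are known sources of Ccl5, Ccl3 and Ccl4. In that list 0 genes passed the adjusted threshold in limma and 4 of 12 had an unadjusted p under 0.05, beside 1107 of all 19194 genes. The 3 genes that separated upward (4.39% of all genes did) were Cd3d and the CD8 chain genes Cd8a (1.34 ± 0.13) and Cd8b1 (1.16 ± 0.16, SE). Cd8a was dim in wild type fat, at -4.62, -4.90 and -4.84. The lowest values well above background on these wild type arrays were -5.79 to -5.69, and the part of background in the Cd8a difference was not tested. Cd3d differed by 0.44 ± 0.13 and Cd3e by 0.07 ± 0.09 (SE), and Cd4 was not measured. Among genes of NK and cytotoxic cells, Ncr1, Klrb1c, Gzma and Prf1 had 0.07 ± 0.32, -0.26 ± 0.17, 0.05 ± 0.17 and -0.01 ± 0.16 (SE). Gzmb and Nkg7 had 0.35 ± 0.29 and 0.27 ± 0.17 (SE), with overlapping groups. The part of these cells in the chemokine values was not tested. The dendritic cell markers, 6 of 6 measured and 3 higher, had slide means of 0.49, 0.03 and -0.31. Their summed signal was 1.58 to 2.31 in wild type and 1.69 to 2.97 in patDp/+ fat. The mast cell markers were lower in 7 of 7 with slide means of 0.49, -0.24 and -0.83 and sums of 4.16 to 7.18 and 3.79 to 5.77. The B cell markers were lower in 8 of 8 with a median of -0.66, slide means of -1.06, -0.52 and -0.39, 4 genes at an unadjusted p under 0.05 and 0 past the adjusted threshold. Their sums were 1.78 to 2.53 in wild type and 0.85 to 1.91 in patDp/+ fat. For these too, a part in the chemokine values was not tested.

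Markers of granulocytes and of the tissue's own cells had medians between -0.16 and 0.17. The markers of eosinophils, the cells drawn by Ccl11, were higher in 3 of 5 measured with a median of 0.01, and Epx, their peroxidase gene, was not well above background on any array. The neutrophil markers were higher in 4 of 6 measured, with a median of 0.17. Medians were 0.02 for the fibroblast and progenitor markers (7 of 11 higher), 0.06 for the mesothelial markers (6 of 6), -0.16 for the endothelial markers (1 of 7) and -0.10 for the adipocyte markers (2 of 10, with Pnpla2 lacking a value on wild type replicate 2). In these lists 0 genes passed the adjusted threshold in limma, and 1, the eosinophil gene Prg2 (-0.69 ± 0.27, SE), had an unadjusted p under 0.05.

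How alike the genes were over the 6 arrays was measured as the root mean square distance of their log2 values, each gene centred on its own mean. The 3 closest pairs were neighbours on the chromosome. Ccl9 and Ccl6 were 0.05 apart, Ccl2 and Ccl7 0.15, and Ccl3 and Ccl4 0.25. The farthest pair was Ccl12 and Ccl3 at 0.81. Over whole subclusters the 20 pairs of the same subcluster had a median distance of 0.53 and the 25 pairs from different subclusters 0.45. Ccl2 was nearer to Ccl6 (0.32) and Ccl9 (0.33) of the other subcluster than to Ccl8 (0.54), Ccl11 (0.62) or Ccl12 (0.64) of its own. These distances rest on 6 arrays that share their slides in pairs and are given with no test.

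**Figure D4:**
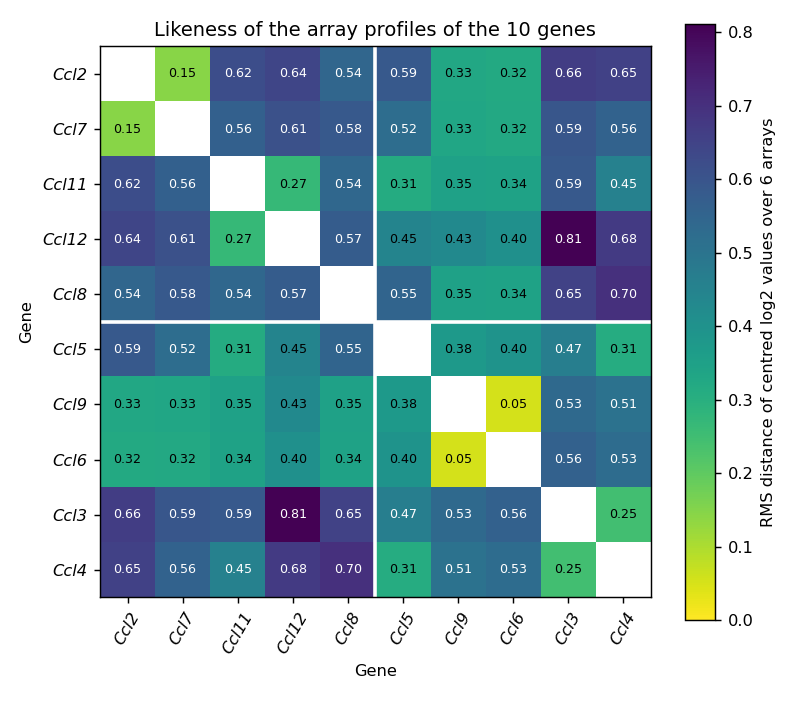
Root mean square distance of centred log2 values over 6 arrays (colour and printed value) for each pair of the 10 genes, with white lines between the subclusters. The lowest values lie next to the diagonal, at Ccl9 with Ccl6, Ccl2 with Ccl7 and Ccl3 with Ccl4.

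Outside the cluster, the genes most like the mean profile of the Ccl2 subcluster over the 6 arrays were Vcan (distance 0.03), Ltb4r1 (0.07), Itgam (0.08), Asphd2 (0.09) and Fn1 (0.10). Vcan and Fn1 encode the matrix proteins versican and fibronectin, Ltb4r1 a leukotriene receptor and Itgam the integrin CD11b, which is also on the macrophage list. Their log2 differences were 0.42 to 0.53. For the Ccl5 subcluster, Rbpjl (0.09), Lingo4 (0.09), the transcript ENSMUST00000127474 (0.10) and Lat (0.11) were among the 5 closest, with differences of 0.45 to 0.60. Lat encodes a T cell signalling adaptor. These profiles were picked from 19194 genes for their likeness.

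The receptors for these ligands were measured in part. Of 11 CC chemokine receptor genes reported, 6 were well above background, of which 2 were higher and 4 lower, with a median of -0.07. None passed the adjusted threshold in limma, and 0 had an unadjusted p under 0.05. Ccr2, the receptor for Ccl2, Ccl7 and Ccl12, read 0.95, 0.64 and 0.77 in wild type and 1.37, 1.13 and 0.52 in patDp/+ fat. As for Ccl2, replicates 1 and 2 of patDp/+ were the highest arrays. Unlike for Ccl2, replicate 3 of patDp/+ was the lowest of all 6. The difference of Ccr2 was 0.22 ± 0.22 (SE, adjusted p = 0.929).

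Ccr3, the eotaxin receptor, read -3.85, -3.36 and -2.30 in wild type and -2.68, -3.14 and -2.91 in patDp/+ fat, a wild type spread that contained every patDp/+ array (0.26 ± 0.39, SE). Differences of the lymphocyte receptors were -0.09 ± 0.15 for Ccr6, -0.06 ± 0.34 for Ccr7 and -0.07 ± 0.15 for Ccr9. Their signal was low, with wild type means of -4.14, -3.86 and -4.15. The lowest value well above background was -5.95 to -5.23, by array, and the part of background in these differences was not tested. Ccrl2, which presents chemerin, had -0.26 ± 0.12 (SE). Ccr1, the shared receptor for Ccl5, Ccl9, Ccl6 and Ccl3, and Ccr4, Ccr8, Ccr10 and Ccr1l1 were well above background on 0 arrays.

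Atypical receptors bind chemokines without classical signalling and take them up or carry them. The 4 atypical receptor genes and 3 genes of chemokine carriers or processing enzymes were all measured and all 7 were higher, with a median of 0.20 and 0 past the adjusted threshold. Ackr2, the scavenger of inflammatory CC chemokines, read 0.50, 0.39 and 0.80 in wild type and 0.87, 1.17 and 0.93 in patDp/+ fat. It was the 1 gene of the list whose groups separated upward (4.39% of all genes did). It was also the 1 with an unadjusted p under 0.05 (0.43 ± 0.14, SE, limma adjusted p = 0.851). Ackr1, which carries chemokines across venules, had 0.30 ± 0.18, Ackr3, a scavenger of CXC chemokines, 0.39 ± 0.17, and Ackr4, a scavenger of homeostatic chemokines, 0.18 ± 0.18. The syndecan genes Sdc1 and Sdc4, whose heparan sulphate chains hold chemokines, had 0.03 ± 0.14 and 0.06 ± 0.14. Dpp4, a protease that trims chemokines, had 0.20 ± 0.11 (SE).

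**Figure D5:**
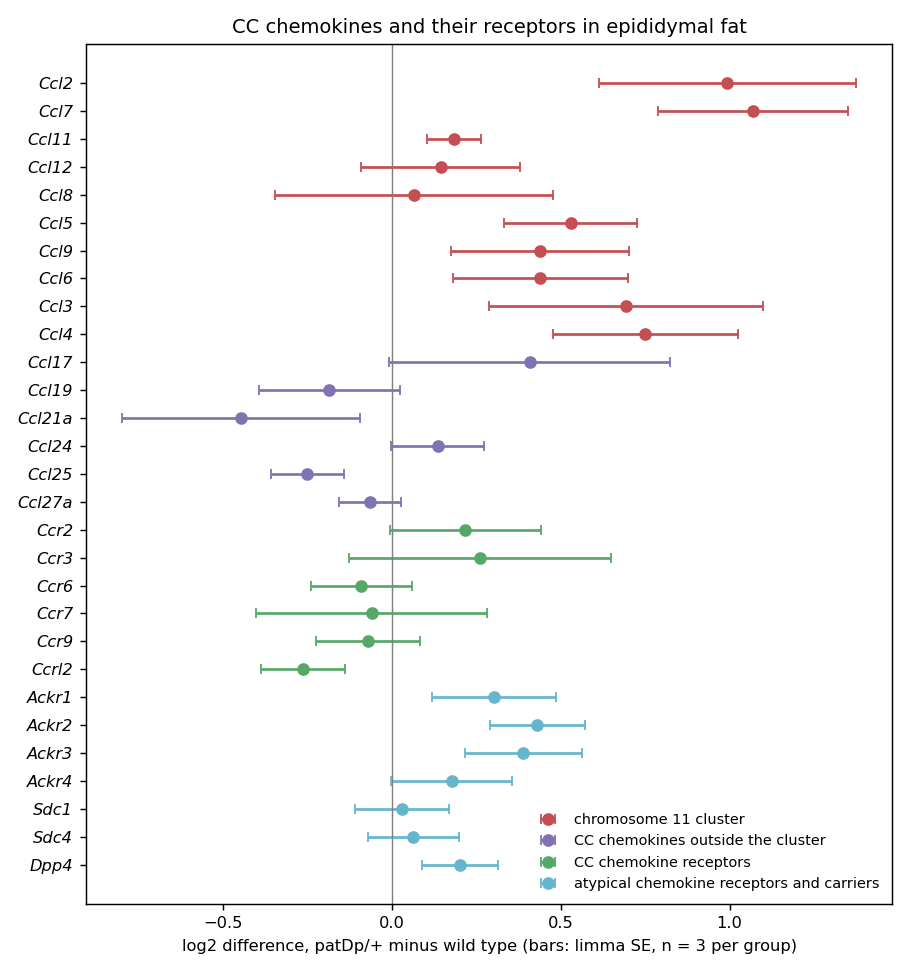
Log2 difference (patDp/+ minus wild type, horizontal axis, bars limma SE, n = 3 per group) of the 10 cluster genes, the CC chemokines outside the cluster, the CC chemokine receptors, and the atypical receptors and carriers. The 10 cluster genes lie at 0.06 to 1.07, the other CC chemokines and the receptors lie on both sides of 0, and the atypical receptors and carriers lie at 0.03 to 0.43.

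CC chemokine genes other than the 10 divided around 0. Of 13 listed, which include the unmeasured Ccl1 of the chromosome 11 cluster, 10 were on the array and 6 were measured, of which 2 were higher, with a median of -0.13, 0 past the adjusted threshold in limma and 0 at an unadjusted p under 0.05. Ccl17, a dendritic cell ligand of Ccr4, read -1.56, -1.93 and -2.17 in wild type and -1.13, -0.89 and -2.43 in patDp/+ fat. As for Ccl2, replicates 1 and 2 of patDp/+ were highest. Unlike for Ccl2, replicate 3 of patDp/+ was below every wild type array. The difference of Ccl17 was 0.41 ± 0.42 (SE). Ccl24, the eotaxin of another chromosome, differed by 0.14 ± 0.14. The homeostatic chemokines Ccl19 and Ccl21a, ligands of Ccr7, had -0.19 ± 0.21 and -0.45 ± 0.35, Ccl25, the ligand of Ccr9, -0.25 ± 0.11 and Ccl27a -0.07 ± 0.09 (SE). Ccl1, Ccl20, Ccl22 and Ccl28 were not measured.

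Genes that induce or transmit the transcription of these chemokines were also compared. Of 23 listed, 22 were measured and 16 were higher, with a median of 0.13, 0 past the adjusted threshold in limma and 0 at an unadjusted p under 0.05. The cytokine genes Il1b, Il6 and Tnf had the largest differences of the list, 0.84 ± 0.47, 0.52 ± 0.36 and 0.42 ± 0.33 (SE), with overlapping groups. Their signal was low, with Il1b at -4.88 to -2.56 and Il6 at -5.34 to -3.99. The lowest value well above background was -5.95 to -5.23, by array. Tnf read -4.05, -4.52 and -4.40 in wild type and -3.18, -4.08 and -4.44 in patDp/+ fat. The highest array was patDp/+ replicate 1, as for Ccl3 and Ccl4. The negative controls were also brightest on that array, and the part of this in the Tnf value was not tested. Ifng, the interferon of T and NK cells, had 0.17 ± 0.29. The NF-kB feedback genes Nfkbia and Tnfaip3 had 0.01 ± 0.09 and 0.10 ± 0.09. Of the 22 genes, 3 had groups that separated upward (4.39% of all genes did). These were the NF-kB subunit genes Nfkb2, Rela and Relb, with 0.21 ± 0.09, 0.08 ± 0.07 and 0.14 ± 0.07 (SE). Nfkb1, another subunit gene, had -0.02 ± 0.08. The slide means of the list were 0.28, 0.06 and 0.09.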

How the data were processed

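Epididymal fat RNA of 6 mice was hybridised to 6 arrays. Per the file headers, the processed intensity was computed with Feature Extraction 9.5.1.1 and is background-subtracted. A series table that the authors deposited holds normalized log2 values and served as an alternative. Feature Extraction 9.5 (Agilent) and limma 3.18.2 are listed in the submitters' processing notes. Here, log2 intensity minus the array's 75th percentile was used, without outlier spots and with replicate spots averaged. A probe was kept if well above background on at least 3 of 6 arrays (27975 of 41174), and a gene was its kept probe of highest mean (19194 genes). Names were updated through RefSeq accessions where these matched (27050 probes, GRCm38.p6). Probe positions are mm9, from the files.

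Groups, from the sample titles, were compared with limma 3.58.1 (R 4.3.3, two-sided) on all 6 arrays, calling adjusted p-values (Benjamini-Hochberg) under 0.05. The fit was tested on simulated data. The labels speak of separate mice, and their number, 3 per group, limits the precision. The members, gene lists and naming rule were chosen with earlier results of these data known. The rule names all members, the measured genes of the ligand and receptor lists, set inducers with the 3 largest differences, the first 2 measured markers of lists described singly, genes within 500 kb and the 5 nearest profiles per subcluster. Nfkb1, Nfkb2, Rela, Relb, Timd4, Lyz2, Cd8a, Cd8b1, Ncr1, Klrb1c, Gzma, Gzmb, Prf1, Nkg7, Prg2, Pnpla2, the epididymis markers and the genes of the label check were named after their values were seen. Some genes that this rule covers are left out of the text and of the list counts. Alternatives were normexp (offset 50), quantile and cyclic loess normalization, the deposited table, other filters, probe and spot rules, slide and replicate blocks, array weights, another variance model and leaving out each array.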

Additional observations from a re-analysis of the deposited data

How the results depend on the processing

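The 12 alternatives that kept all arrays gave a median difference of 0.39 to 0.50 for the 10 chemokine genes, 0.17 to 0.31 for the Ccl2 subcluster and 0.43 to 0.55 for the Ccl5 subcluster. Leaving out 1 array in turn gave 0.31 to 0.70, 0.17 to 0.44 and 0.30 to 0.72. The lowest medians of the 10 and of the Ccl5 subcluster came without patDp/+ replicate 1, and the highest of the Ccl2 subcluster without patDp/+ replicate 3. Of 180 values of single genes under these alternatives, 175 kept their direction within the spread between replicates, and 1 moved (Ccl11 with normexp, 0.06). The remaining 4 turned negative. These were Ccl8, at -0.26 without wild type replicate 2, -0.19 without patDp/+ replicate 1 and -0.06 without patDp/+ replicate 2 (leave-one-out range -0.26 to 0.44), and Ccl12, at -0.12 without patDp/+ replicate 2 (-0.12 to 0.32). The other filters, keeping outlier spots, the blocks and the other variance model returned the main value for each of the 10 genes. The slide and replicate blocks are also the same fit. The count of 175 therefore overstates how many settings could have changed a value. Within slide 1 the median of the 10 was 0.86, that of the Ccl5 subcluster 0.90 and Ccl12 had -0.31. Within slide 2 the Ccl2 subcluster had 0.95. Within slide 3 the median of the 10 was 0.13, and Ccl2, Ccl8, Ccl9 and Ccl6 had -0.23, -1.08, -0.35 and -0.38. The cause of these shifts was not tested. Slides and replicate numbers coincide. With the replicate block 0 genes passed the adjusted threshold, as without it, and 1010 had an unadjusted p under 0.05, against 1107. Deviations of same-numbered arrays correlated at 0.11, -0.09 and -0.04, so the fit did not pair the mice, and values within a slide are given only because a slide may be a batch. No alternative gave a gene past the adjusted threshold. Normexp put 59.7% of all genes higher (median 0.07) and no filter on dim probes 54.1% (0.02), against 43.5%. Of the 10 genes, Ccl3 is the one most limited by signal over background.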
